A study of Mus musculus with 6 samples.

Results

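Cd44, the cell-surface receptor for hyaluronan, and 7 genes that make, cut or cross-link this polymer were followed through RNA sequencing of cells sorted from mouse cortex at the border of an infarct. The 8 genes were chosen by name, as Cd44 and the hyaluronan genes Has1, Has2, Has3, Hyal1, Hyal2, Cemip and Tnfaip6, and all 8 were found among the 24419 gene symbols of the table. They were chosen with earlier results of the same comparison in view, in which Cd44 was among the lower genes, so their differences between the groups are descriptions and carry no test. The samples were 3 libraries labelled cKO and 3 labelled control. They came from cerebral cortex of male mice whose middle cerebral artery had been occluded for 60 minutes, with brains taken on day 4. The libraries labelled cKO came from mice with the Cre drivers Slc17a7-cre and Slc32a1-cre and the alleles Padi4flox/flox, so that recombination is directed to glutamatergic and GABAergic neurons. Mice of the libraries labelled control had Padi4flox/flox without Cre, and every mouse of either group thus carried the floxed alleles and had a stroke. The cells, labelled as neurons, were sorted for Thy1 after removal of cells carrying the astrocyte antigen ACSA2, the endothelial antigen CD31, the leukocyte antigen CD45 or the oligodendrocyte antigen O4. The labels give no age, and they leave unsaid whether each library is 1 animal or a pool.

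Hyaluronan is a long sugar chain of the space between cells. Synthases of the Has family build it at the plasma membrane from UDP-sugars and push it out of the cell, and hyaluronidases and the Cemip protein cut it into fragments. Tnfaip6 encodes TSG-6, a secreted protein that attaches protein chains to hyaluronan during inflammation, and CD44 binds the polymer at the cell surface. In the brain hyaluronan is the backbone of perineuronal nets, and CD44 is known from astrocytes, leukocytes and connective tissue cells of injured tissue.

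Library depth ran from 10094145 to 24056755 reads in the libraries labelled cKO and from 10638387 to 18502027 in those labelled control. Padi4, the targeted gene, had 0, 3 and 12 reads in the libraries labelled cKO and 0 reads in each of the 3 labelled control, so it did not bear out the labels, and every direction below is that of the labels alone. The sources used here do not name the floxed exons. Values are the deposited CPM (a gene's reads relative to the library total) with a further scaling per library, called scaled CPM. Transcripts of other cells were abundant beside those of neurons. The summed level of 10 pan-neuronal markers ran from 1309 to 6223 in the libraries labelled cKO and from 2397 to 3536 in those labelled control, and that of 10 oligodendrocyte markers from 11280 to 32657 in the libraries labelled cKO and from 21899 to 27311 in those labelled control. In such mixed samples, fewer cells of a type and less RNA per cell cannot be told apart.

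Tnfaip6 and Cd44 were the most abundant members per kilobase of exon, with means of 83.5 and 22.7 scaled CPM per kilobase over the 6 libraries, and the same libraries held the highest and the lowest value of both. The bases that precede their transcripts are therefore shown, taken from RefSeq (GRCm38.p6, the mm10 assembly) and cut to the bases that lie before both the RefSeq and the GENCODE start. Capitals mark any match on either strand to 1 of 5 motifs. The letters searched were TGANTCA for AP-1 and TTCNNNGAA for STAT factors. For the promoter boxes they were GGGCGG for the GC box and TATAAA for the box of that name, with the CCAAT box spelled by its name. The Cd44 window is chr2:102901666-102901915 on the minus strand and the Tnfaip6 window is chr2:52037863-52038008 on the plus strand.
Cd44: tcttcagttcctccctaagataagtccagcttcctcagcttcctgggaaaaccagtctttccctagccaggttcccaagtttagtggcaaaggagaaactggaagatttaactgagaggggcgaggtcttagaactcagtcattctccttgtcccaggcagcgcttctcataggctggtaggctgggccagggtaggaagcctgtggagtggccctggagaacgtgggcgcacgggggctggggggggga
Tnfaip6: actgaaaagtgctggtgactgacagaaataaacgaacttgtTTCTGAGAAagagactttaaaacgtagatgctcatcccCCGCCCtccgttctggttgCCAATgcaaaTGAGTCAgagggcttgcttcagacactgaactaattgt

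The Cd44 window of 250 bases held 0 matches to these letters, where 6.75% of 32851 promoter windows of that length in the table held an AP-1 match, 7.02% a STAT match, 32.7% a GC box, 33.8% a CCAAT box and 12.4% a TATA box. The shorter Tnfaip6 window of 146 bases held 1 AP-1 match, 142 bases before the RefSeq start, and 1 STAT match, 209 bases before it. The windows it is compared with were cut at the same distance from their RefSeq start, so the bases nearest that start were left out. Of all windows of that length, 3.86% held an AP-1 match and 4.26% a STAT match. The Tnfaip6 window also held 1 GC box and 1 CCAAT box, letters found in 16.1% and 19.4% of windows, and 0 TATA boxes, found in 7.14%. No match overlapped another, and a match is a string of letters and not a measured site. RefSeq windows were matched for 6 of the 8 members.

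Cd44 was lower in every library labelled cKO than in any labelled control. It stood at 122, 57.2 and 73.4 scaled CPM in replicates 1 to 3 labelled cKO, and at 151, 167 and 354 in replicates 1 to 3 labelled control. The highest library was control replicate 3 and the lowest cKO replicate 2. The nearest libraries across the groups, cKO replicate 1 and control replicate 1, were closer together than the SD within either group. The means were 84.3 ± 33.9 in the libraries labelled cKO and 224 ± 113 in those labelled control (SD, n = 3 each), a log2 difference of -1.36 (SE 0.41). Between 566 and 6377 reads stood behind each value, and the 95% Poisson interval for counting error reached 127 in cKO replicate 1 and began at 143 in control replicate 1. In mm10 the gene spans chr2:102811141-102901665 (minus strand), and no annotated gene shares its exons.

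Over all 14796 genes tested, limma called 0 genes at an adjusted p under 0.05, which is 0.0%, and no member was called. At an unadjusted p under 0.05 limma counted 50 genes as higher (0.338%) and 76 as lower (0.514%), or 126 in either direction. The counts in either direction were 73 with edgeR and 175 with DESeq2 on recovered reads. DESeq2 called 1 gene after adjustment, Ifit3, which is no member. Every library labelled cKO was below every library labelled control in 334 of the genes tested, or 2.26%, and above in 362, or 2.45%. Among the 8 members this was so for Cd44 below and Has1 above, a description of genes chosen on this comparison. All 8 passed the filter on low values, 4 with a positive and 4 with a negative difference, and their median log2 difference was 0.005, beside -0.02 over all genes tested.

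**Figure D1:**
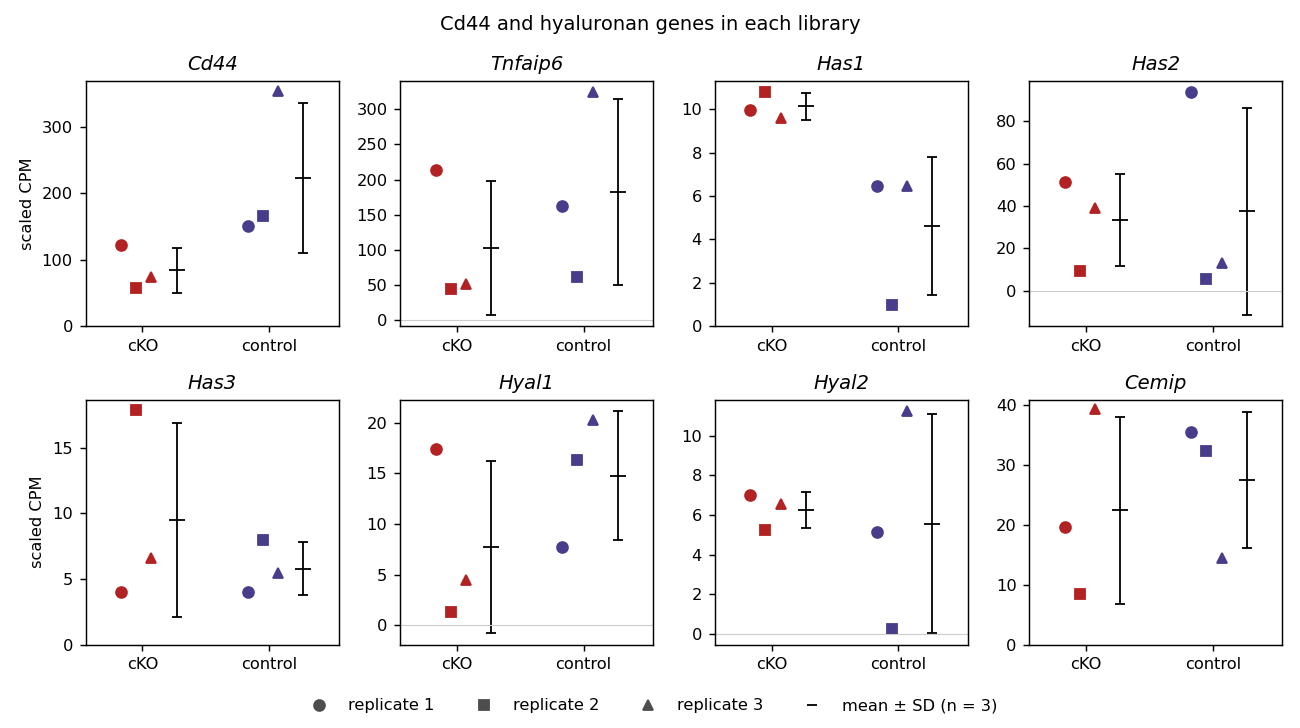
Scaled CPM of the 8 members in each library, libraries labelled cKO in red and labelled control in blue, with a symbol for each replicate number and the mean ± SD of each group as a bar. Cd44 lay at 57.2 to 122 in the libraries labelled cKO and 151 to 354 in those labelled control, Has1 at 9.60 to 10.8 against 0.956 to 6.45, and the groups of the other 6 members overlapped.

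Tnfaip6 did not part by label. It was at 213, 44.2 and 51.6 scaled CPM in replicates 1 to 3 labelled cKO, and at 162, 61.9 and 324 in replicates 1 to 3 labelled control. Control replicate 3 and cKO replicate 1 were the highest libraries, and the lowest was again cKO replicate 2. The means were 103 ± 95.5 in the libraries labelled cKO and 183 ± 132 in those labelled control, a log2 difference of -0.90 (SE 0.68), which was -0.34 without control replicate 3, -0.49 without cKO replicate 2, -0.60 without cKO replicate 3, -1.53 without control replicate 2 and -1.62 without cKO replicate 1. Per kilobase of annotated exon, Tnfaip6 stood above Cd44 in 6 of 6 libraries. The level per kilobase averaged 60.2 for Tnfaip6 and 12.4 for Cd44 in the libraries labelled cKO, and 107 for Tnfaip6 and 33.0 for Cd44 in those labelled control. In mm10 the gene spans chr2:52038009-52056686 (plus strand).

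Of the synthase genes, Has2 varied most between libraries, and it did so within each group. Has2 encodes the synthase that is essential for mouse heart development and makes long chains. It was at 51.5, 9.39 and 39.0 scaled CPM in replicates 1 to 3 labelled cKO, and at 93.7, 5.66 and 13.0 in replicates 1 to 3 labelled control. The same 3 libraries that were high in Has2, namely control replicate 1, cKO replicate 1 and cKO replicate 3, were high in fibroblast markers. The summed level of 8 such markers was 3943, 397 and 3984 in replicates 1 to 3 labelled cKO, and 6726, 710 and 1157 in replicates 1 to 3 labelled control. Of these, Pdgfra is also listed as an oligodendrocyte precursor marker. It was at 579, 362 and 375 in replicates 1 to 3 labelled cKO, and at 532, 412 and 693 in replicates 1 to 3 labelled control. Pdgfra thus made up most of the sum in cKO replicate 2 and in control replicates 2 and 3. Col1a1, which encodes a chain of type I collagen, was at 624, 3.54 and 641 in the libraries labelled cKO and at 1205, 60.0 and 48.9 in those labelled control. The part of fibroblasts in the Has2 values was not tested. The Has2 means were 33.3 ± 21.6 in the libraries labelled cKO and 37.5 ± 48.9 in those labelled control, so the plain mean was lower in cKO while the log2 difference was 0.43 (SE 0.93). The difference was -0.17 with edgeR and -0.20 with DESeq2. It was -0.38 without control replicate 2 and -0.02 without cKO replicate 1, against 1.53 without control replicate 1 and 1.15 without cKO replicate 2. Leaving out replicate 3 gave 0.18 for the cKO library and 0.15 for the control library.

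Has1 was higher in every library labelled cKO than in any labelled control, at a low level. It was at 9.98, 10.8 and 9.60 scaled CPM in replicates 1 to 3 labelled cKO, and at 6.45, 0.956 and 6.44 in replicates 1 to 3 labelled control. The 3 values labelled cKO lay close together, and the lowest value, in control replicate 2, rested on 13 reads. The means were 10.1 ± 0.619 in the libraries labelled cKO and 4.62 ± 3.17 in those labelled control, a log2 difference of 1.22 (SE 0.68) that was 0.58 without control replicate 2 and reached 1.54 without either of the other control libraries. In control replicate 1, 70 reads gave a 95% Poisson interval of 5.03 to 8.15, and in cKO replicate 3, 228 reads gave 8.39 to 10.9. The summed level of 7 ependymal and choroid plexus markers also did not overlap between the groups, at 18.9 to 41.7 in the libraries labelled cKO and 3.83 to 13.4 in those labelled control. Of all the marker lists summed, it was the only one to part by label. Among its single markers, only Foxj1 lay without overlap, at 10.5 to 26.0 in the libraries labelled cKO and 1.40 to 9.89 in those labelled control. Of all genes tested, 2.45% lay above in this way. Of the 7 markers 3 were tested, Foxj1, Kl and Aqp1, all with a positive difference, and the sum rests on these. The others were near 0. Ttr was at most at 0.816 in any library, Folr1 at 0.337 and Ccdc153 at 0.167, and Tmem212 had 0 reads in all 6 libraries. The part of ependymal and choroid plexus cells in the Has1 values was not tested. Has3, the synthase known for shorter chains, was at 3.98, 17.9 and 6.57 in replicates 1 to 3 labelled cKO and at 3.96, 7.94 and 5.44 in replicates 1 to 3 labelled control. The groups overlapped, and the log2 difference of 0.44 (SE 0.67) became -0.10 without cKO replicate 2, 0.23 without control replicate 1, 0.66 without control replicate 2 and 0.86 without cKO replicate 1.

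Per kilobase of exon, Has2 made up 81.1%, 29.9% and 74.5% of the synthase transcripts in replicates 1 to 3 labelled cKO, and 91.5%, 47.9% and 57.4% in replicates 1 to 3 labelled control. In cKO replicate 2 the largest share was that of Has3, at 37.8%, with Has1 at 32.3%. The synthase sum per kilobase ran from 7.41 to 15.0 in the libraries labelled cKO and from 2.79 to 24.2 in those labelled control, with the highest value in control replicate 1. In mm10, an antisense gene, Has2os, shares 4.3% of the Has2 exon bases, and it was at most at 1.44 scaled CPM in any library. The gene Chtf8 shares 5.5% of the Has3 exon bases on the other strand and was at 15.9 to 41.5 scaled CPM. No source used here states the strand setting of the counting, so Has3 reads cannot be told apart from Chtf8 reads over these bases.

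**Figure D2:**
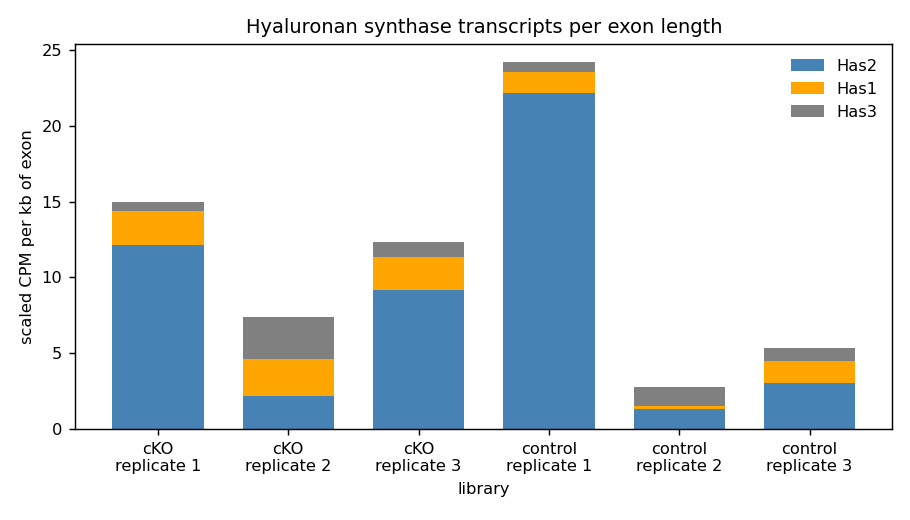
Scaled CPM per kilobase of annotated exon of Has2, Has1 and Has3, stacked for each of the 6 libraries. The sum was 24.2 in control replicate 1 and 15.0 in cKO replicate 1, mostly Has2, and it was lowest in control replicate 2, at 2.79.

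The genes of hyaluronan breakdown showed no shared direction. Hyal1 encodes a lysosomal hyaluronidase. It was at 17.4, 1.31 and 4.42 scaled CPM in replicates 1 to 3 labelled cKO, and at 7.74, 16.3 and 20.3 in replicates 1 to 3 labelled control. The groups overlapped through cKO replicate 1, which stood above control replicates 1 and 2. The log2 difference was -1.27 (SE 0.79), which was -0.57 without cKO replicate 2, where 13 reads were assigned, and -2.06 without cKO replicate 1. The Hyal1 values are uncertain, since 50.8% of its exon bases in mm10 also belong to Naa80 on the same strand. Naa80 is listed under its earlier symbol Nat6 at 10.7 to 29.1 scaled CPM in the libraries labelled cKO and 14.3 to 26.7 in those labelled control.

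Hyal2 encodes a hyaluronidase anchored at the cell surface, which starts the breakdown of long chains. It was at 7.0, 5.25 and 6.57 scaled CPM in replicates 1 to 3 labelled cKO, and at 5.16, 0.221 and 11.3 in replicates 1 to 3 labelled control. The library at 0.221 held 3 reads, and without it the log2 difference of 0.68 (SE 0.85) became -0.27. Without control replicate 3 the difference was 1.40. Cemip encodes a protein that fragments hyaluronan outside lysosomes. It was at 19.6, 8.38 and 39.3 in replicates 1 to 3 labelled cKO, and at 35.6, 32.3 and 14.5 in replicates 1 to 3 labelled control. The groups overlapped, and the log2 difference of -0.42 (SE 0.60) was 0.11 without cKO replicate 2, -0.20 without control replicate 1, -0.26 without control replicate 2, -0.81 without control replicate 3 and -0.94 without cKO replicate 3.

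Cells that are known to carry CD44 differed in how far their markers were present. Neutrophil and lymphocyte markers were near 0, and markers of microglia and macrophages were present at a low level. The 12 microglia and macrophage markers summed to 27.1 to 82.2 in the libraries labelled cKO and to 32.8 to 76.9 in those labelled control. The 6 neutrophil markers in the table summed to at most 3.70 in the libraries labelled cKO and 4.00 in those labelled control. The 8 lymphocyte markers summed to at most 2.21 in the libraries labelled cKO and 2.33 in those labelled control, with Cd3e and Ms4a1 at 0 reads in all 6 libraries. The 10 astrocyte markers summed to 859 to 1888 in the libraries labelled cKO and to 605 to 1152 in those labelled control, and 9 of the 10 had a positive log2 difference. The astrocyte sum was highest in cKO replicate 2, where Cd44 was lowest, and lowest in control replicate 3, where Cd44 was highest. Slc1a2 made up most of this sum in each library, at 1214 in cKO replicate 2 and 402 in control replicate 3. Other astrocyte markers did not all follow that order, as Gja1 was highest in control replicate 1, at 97.6. The 8 oligodendrocyte precursor markers summed to 1430 to 2320 in the libraries labelled cKO and to 1827 to 2022 in those labelled control, with 3 positive and 5 negative differences. The precursor sum, like Cd44, was lowest in cKO replicate 2, while it was highest in cKO replicate 1. The 8 fibroblast markers had 1 positive and 7 negative differences. The fibroblast sum, like Cd44, was lowest in cKO replicate 2, while it was highest in control replicate 1 and Cd44 in control replicate 3. Pdgfra counts in both the precursor and the fibroblast sum, and it made up 362 of the fibroblast sum of 397 in cKO replicate 2. The part of astrocytes, fibroblasts, oligodendrocyte precursors, microglia and macrophages in the Cd44 values was not tested.

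**Figure D3:**
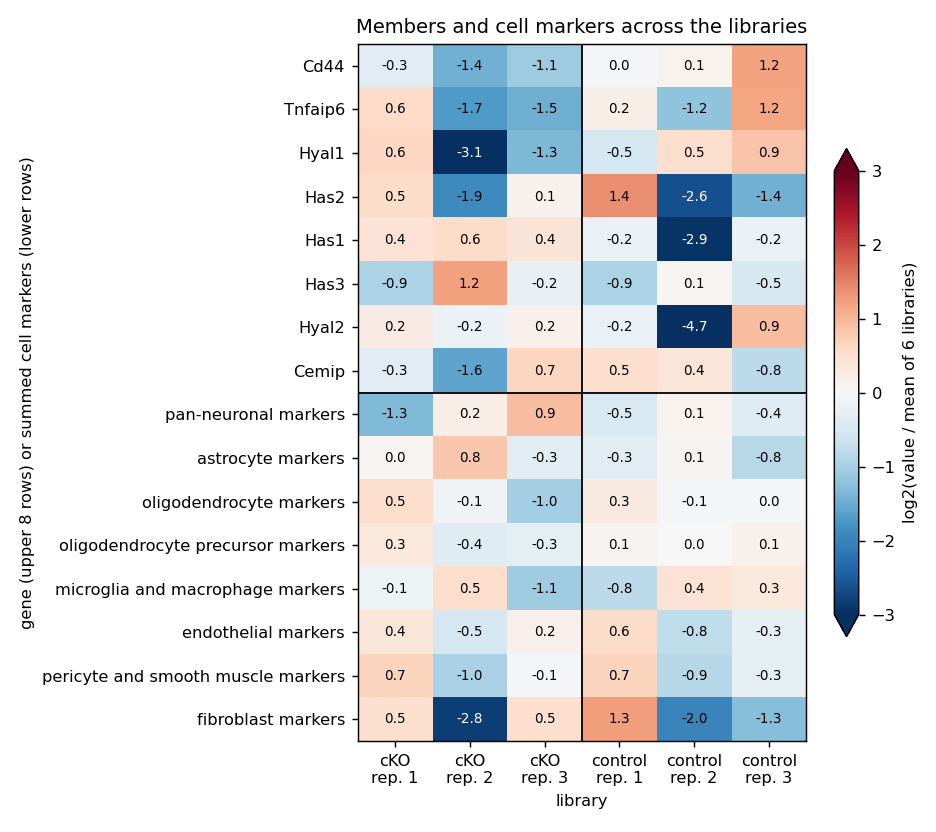
Each cell gives log2 of a library's value over the mean of the 6 libraries, for the 8 members and for the summed markers of 8 cell types, with colours capped at 3 in either direction. Pdgfra counts in both the precursor and the fibroblast sum, and Cspg4 in both the precursor and the pericyte sum. Cd44 was at 1.20 in control replicate 3, where Tnfaip6 was at 1.18 and the fibroblast markers at -1.28, while Has2 at 1.41 and the fibroblast markers at 1.25 were both highest in control replicate 1.

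Across the 6 libraries, the member closest to Cd44 was Hyal1, with a Pearson r of 0.85, followed by Tnfaip6 at 0.79, on log2(scaled CPM + 1). Hyal1 shares exon bases with Naa80, and its lowest value, in cKO replicate 2, rested on 13 reads. The r of Hyal1 was not examined without single libraries. The r of Tnfaip6 was 0.60 without control replicate 3 and 0.92 without control replicate 2. Has2 (-0.09), Cemip (0.10) and Hyal2 (0.06) had an r near 0, and Has1 (-0.43) and Has3 (-0.56) ran the other way. These are descriptions over 6 libraries that were sorted alike and differ in depth and in their mixture of cells. Of 10008 genes with a mean of at least 10 scaled CPM, 58 had an r of at least 0.9 with Cd44. The 6 highest were Pgm1 at 0.992, Phf2 at 0.975, Dusp10 at 0.972, Fam50a at 0.971, and Sirt1 and Pvr at 0.967. Pgm1 names a phosphoglucomutase gene, and since RefSeq gives Pgm2 as an earlier symbol of it and the table has a row for each, its identity is uncertain. Dusp10, which encodes a phosphatase of stress-activated MAP kinases, had the widest range of these. It was at 118, 23.8 and 38.0 scaled CPM in replicates 1 to 3 labelled cKO, and at 82.1, 106 and 437 in replicates 1 to 3 labelled control.

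Sirt1, which encodes a protein deacetylase, and Pvr, which encodes an adhesion receptor of the nectin-like family, were also lower in every library labelled cKO than in any labelled control. This was so for 334 (2.26%) of all genes tested. Both genes were picked for likeness to Cd44 over these same libraries, so their separation by label is no independent result. Pvr was at 19.7, 9.80 and 15.7 in replicates 1 to 3 labelled cKO, and at 20.5, 34.2 and 66.4 in replicates 1 to 3 labelled control, the same order of libraries as Cd44 (Spearman rho of 1.0). After the group means were subtracted, the 6 highest were Pgm1, Dusp10, Ero1l, Aplp1, Phf2 and Slc9a3r2, and 3 genes were named by both measures. Phf2 encodes a histone demethylase and Ero1l an oxidase of the endoplasmic reticulum. The 6 genes named first depended on the libraries: 4 of them stayed among the 6 highest without control replicate 1, and 0 or 1 without any other library.

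Other genes of hyaluronan biology, like the members, were not called between the groups. Of 58 symbols in 5 lists by role, 57 were in the table and 45 were tested. After adjustment limma called 0 of these as higher and 0 as lower, as it called 0 of all 14796 genes tested. At an unadjusted p under 0.05 the count was 0 with limma, with edgeR and with DESeq2. Over all genes tested the limma count was 126, or 0.852%, so the count of 0 among 45 is near that share. The log2 difference was positive for 21 and negative for 24, with a median of -0.08, beside -0.02 over all genes tested. The genes named here are among the 3 most abundant of each list.

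The enzymes that supply UDP-sugars had 2 positive and 5 negative differences of 7, with a median of -0.09. Gfpt1, the entry enzyme of hexosamine synthesis, was at 90.4 ± 18.6 scaled CPM in the libraries labelled cKO and 92.5 ± 46.3 in those labelled control (SD, n = 3 each). Ugdh, which makes UDP-glucuronic acid, was at 56.9 ± 15.6 in the libraries labelled cKO and 60.4 ± 18.6 in those labelled control. Ugp2, which makes UDP-glucose, was at 47.0 ± 35.3 in the libraries labelled cKO and 61.0 ± 20.2 in those labelled control. For each of the 3 the means differed by less than the SD within the wider group.

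The other degradation genes had 2 positive and 3 negative differences of 5 tested, with a median of -0.17. Tmem2, also named Cemip2, encodes a cell-surface protein related to Cemip and was at 37.7 ± 3.75 in the libraries labelled cKO and 36.7 ± 7.39 in those labelled control. Hexa, which encodes a subunit of lysosomal hexosaminidase, was at 26.3 ± 18.9 in the libraries labelled cKO and 33.9 ± 1.24 in those labelled control. Hyal4, Hyal5 and Spam1 had 0 reads in all 6 libraries.

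The other receptors were mostly low, with 4 positive and 2 negative differences of 6 tested and a median of 0.17. Hmmr, which encodes an intracellular and surface hyaluronan-binding protein linked to the mitotic spindle, was at 35.4, 0 and 23.7 scaled CPM in replicates 1 to 3 labelled cKO, and at 27.1, 12.7 and 19.9 in replicates 1 to 3 labelled control. The 0 in cKO replicate 2, with a floor of 0.303 for 3 reads, stood beside a log2 difference of -1.05 (SE 1.14). Stab2, a scavenger receptor gene, was at 5.66 ± 6.03 in the libraries labelled cKO and 2.08 ± 0.713 in those labelled control, with wide overlap. Layn, which encodes layilin, was at 3.05 ± 1.35 in the libraries labelled cKO and 2.54 ± 1.56 in those labelled control.

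Hyaluronan-binding matrix genes had 8 positive and 4 negative differences of 12 tested, with a median of 0.14. Vcan, which encodes the large proteoglycan versican, was the most abundant of them at 502 ± 176 in the libraries labelled cKO and 494 ± 126 in those labelled control, a log2 difference of 0.00 (SE 0.36). Ncan, encoding neurocan, was at 187 ± 54.2 in the libraries labelled cKO and 146 ± 43.0 in those labelled control. Bcan, encoding brevican, was at 162 ± 39.8 in the libraries labelled cKO and 146 ± 60.8 in those labelled control.

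Partners and sheddases of CD44 had 5 positive and 10 negative differences of 15, with a median of -0.13. Spp1, which encodes the CD44 ligand osteopontin, was at 565, 25.7 and 790 scaled CPM in replicates 1 to 3 labelled cKO, and at 950, 13.2 and 166 in replicates 1 to 3 labelled control, high in the same 3 libraries as Has2 and the fibroblast markers. Rdx, which encodes radixin, a linker between CD44 and actin, was at 251 ± 153 in the libraries labelled cKO and 274 ± 118 in those labelled control. Adam10, which encodes a protease that sheds CD44, was at 181 ± 117 in the libraries labelled cKO and 258 ± 85.2 in those labelled control, a log2 difference of -0.67 (SE 0.49).

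**Figure D4:**
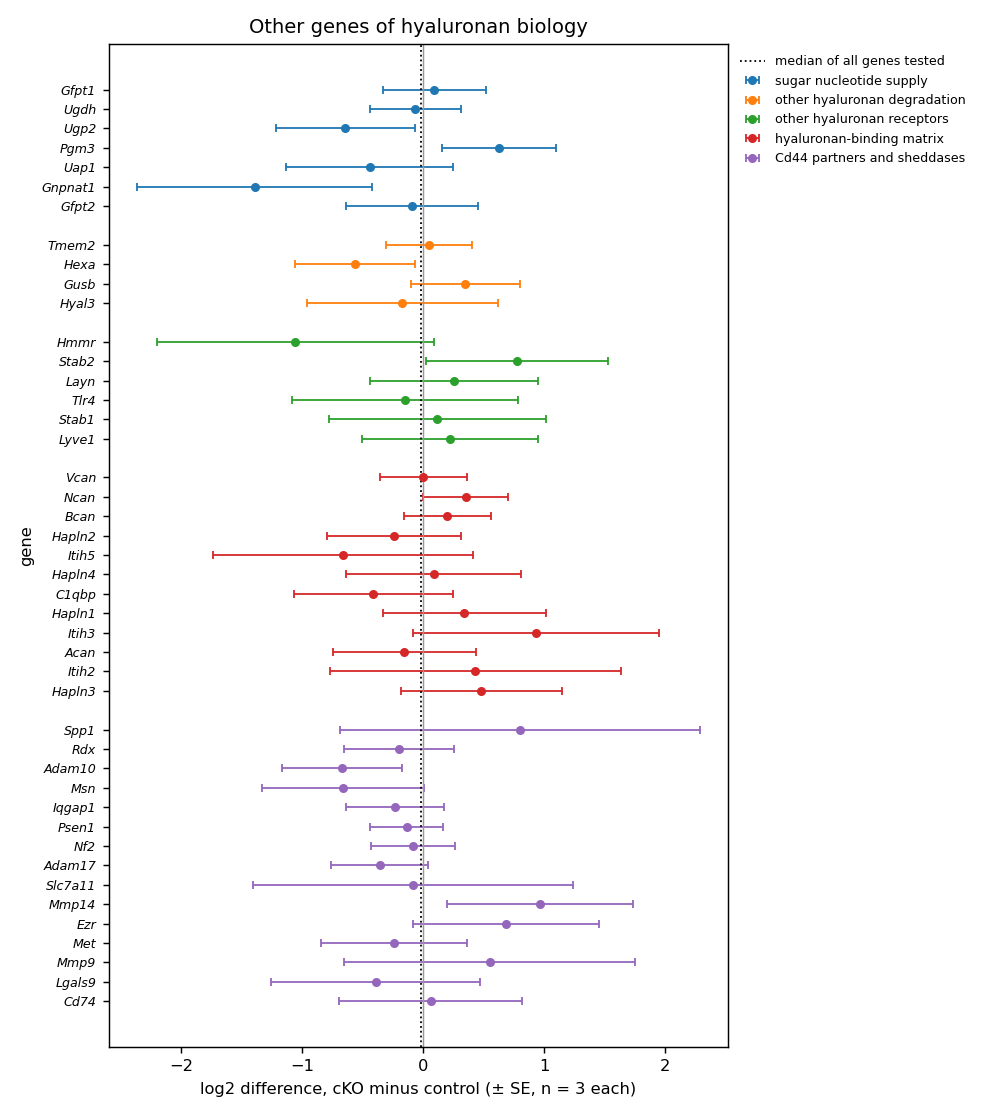
Log2 difference, labelled cKO minus labelled control, with its SE for tested genes of the 5 lists, ordered by abundance within a list. The differences lay on either side of 0, with a median of -0.08 over the lists beside -0.02 over all genes tested (dotted line), and none was called.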

How the data were processed

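RNA of sorted peri-infarct cells was measured in 6 libraries, after 75 minutes of pronase per the labels' protocols. Trimmomatic, HISAT2, featureCounts and edgeR are named, with no versions, in the submitters' processing notes, with the mm10 build. No source used here states the annotation, the strand setting or how multiply mapped reads were handled. The authors deposited a normalized signal, CPM rescaled per library, with column totals from 961962 to 1027958. In each library 100% of values were whole multiples of 1 step within 0.001, so whole reads were recovered. The design had assumed CPM and the test fits either form.

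Genes that reached 1 in 3 or more libraries were tested with limma 3.58.1 (R 4.3.3, trend) on log2(value + 1), a scale that understates the change of low genes, and adjusted with the Benjamini-Hochberg method over all 14796. Reads were tested with edgeR 4.0.16 and DESeq2 1.42.0. The procedure was tested on simulated data. Exon lengths and overlaps came from GENCODE M21 (mm10), which may not be the annotation used for counting. Poisson intervals and the floor of 3 reads cover counting error only. Since separate animals are not stated, p-values measure only the spread between these libraries, which may be technical. Members, lists and rules were chosen with earlier results of these data known. Named are all members, the 3 most abundant genes of each list (1 is not reported here) and the 6 genes most like Cd44 by each of 2 measures, among genes with a mean of at least 10, without predicted genes. Col1a1, Pdgfra, Cspg4, Slc1a2, Gja1, Cd3e, Ms4a1 and the ependymal and choroid plexus genes were named as markers.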

Additional observations from a re-analysis of the deposited data

How the results depend on the processing

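With 3 libraries a group, single libraries set much of what was measured. The count of genes called was 0 in limma under each alternative tried and in edgeR, and 1 with DESeq2, and 0 pathway genes were called under any alternative. The Cd44 log2 difference was negative under 16 of 16 alternatives. It ran from -1.66 to -0.97 without 1 library and from -1.42 to -1.28 under the others. As the groups did not overlap for Cd44 and Has1, leaving out libraries could not change their sign. Changing the filter or adding the replicate block left the difference of each member as it was. The log2 difference of Has1, Hyal1 and Tnfaip6 kept its sign under 16 of 16, that of Has3 under 15, Hyal2 and Cemip under 14 and Has2 under 12. Without both libraries numbered 2, which held the fewest detected genes, it was 0.53 for Has1, -0.45 for Hyal1, -0.16 for Hyal2 and 0.28 for Cemip. Of the 6 genes most like Cd44, between 0 and 4 stayed among the highest 6 without 1 library, and 0 without both libraries numbered 2, where the cause was not tested. The scaling alternatives moved the median log2 difference of all genes by less than 0.1, between -0.05 and 0.02. Libraries sharing a replicate number share only that number in the labels. The correlations of their deviations from the group means were 0.49, 0.30 and 0.034 for numbers 1 to 3. By these, 6 of 6 libraries correlated best with their own number, a hint from the data and not from the design. For number 3 the lead was slight, beside 0.028 for cKO replicate 2 with control replicate 3 and 0.008 for cKO replicate 3 with control replicate 1. The deviations within a group cancel out, so the 6 outcomes are not independent. With a replicate block limma called 0 genes, with 307 at an unadjusted p under 0.05 against 126, and the Cd44 difference was -1.36. Some values of the low members rested on few reads. Has1 in control replicate 2 and Hyal1 in cKO replicate 2 had 13 reads, and Hyal2 in control replicate 2 had 3.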

Other observations

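A few less abundant genes of the same lists, chosen after their values were seen, stood high in the 3 libraries that were high in Has2. Mmp14, which encodes a membrane-bound metalloprotease able to cleave CD44, was at 70.2, 27.2 and 60.7 scaled CPM in replicates 1 to 3 labelled cKO, and at 92.6, 7.14 and 20.7 in replicates 1 to 3 labelled control. Itih2, which encodes a heavy chain of the kind that TSG-6 transfers to hyaluronan, was at 11.2, 0 and 10.2 in replicates 1 to 3 labelled cKO, and at 16, 0 and 2.28 in replicates 1 to 3 labelled control. Slc7a11, a cystine transporter gene whose protein binds a CD44 variant, was at 88.9, 1.82 and 66.6 in replicates 1 to 3 labelled cKO, and at 140.02, 6.55 and 18.1 in replicates 1 to 3 labelled control. Itih3 ran differently, with its highest value, 37.4, in cKO replicate 2. None of these was called between the groups, where limma called 0 of all 14796 genes tested.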
